A study of Mus musculus with 12 samples.

Results

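Dantrolene was compared with the drug control in mice that had a sham operation, so the comparison describes the RNA of left ventricles that were not under pressure overload, with and without the drug. Its members are the 3 sham dantrolene libraries and the 3 sham control libraries, chosen by their labels, which is 6 of the 12 libraries of the study. Both groups were male C57BL/6 mice whose sham operation, at 8 weeks of age, exposed the aortic arch after the thymus was stripped but put no clip on it, and whose ventricles were taken at an age of 12 weeks. Sham dantrolene mice took 30 mg per kg per day of dantrolene by mouth for 4 weeks. Sham control mice are labelled as drug controls, and what they were given in its place is not stated in the sources used here. The other 6 libraries, 3 dantrolene mice and 3 control mice after transverse aortic constriction (TAC), which loads the ventricle with pressure, are used here to estimate the spread between mice and to test whether the drug difference depended on the operation. The mice carry no transgene in the labels, each library is labelled as 1 biological replicate, and the tissue is given as left ventricle.

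Dantrolene is a muscle relaxant used against malignant hyperthermia. It binds ryanodine receptors, the channels through which the sarcoplasmic reticulum releases calcium to start each contraction, RyR1 in skeletal muscle and RyR2 in the heart. Calcium released by RyR2 is taken back by the pump SERCA2a, the product of Atp2a2, which phospholamban (Pln) restrains, and is held inside the reticulum by calsequestrin (Casq2). Calcium also acts on genes through calcineurin, CaMKII and the transcription factors they control, and it sets the demand for ATP.

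The RNA had the profile of ventricular muscle. The summed level of 15 cardiomyocyte markers was 125005 ± 13492 CPM in sham dantrolene hearts and 124191 ± 12429 CPM in sham control hearts (SD, n = 3 each), where CPM is the count scaled to a common library total, with a correction for library composition (TMM). Total counts ran from 25766342 to 34487915 in the 6 libraries. Mice numbered 3 stood apart in both groups: the first principal component of the 6 sham libraries held 63.9% of the variance, with scores of -39.2, -23.5 and 97.6 in dantrolene mice 1 to 3 and -43.6, -31.8 and 40.4 in control mice 1 to 3. Genes whose exons span more than 5 kb took 24.3%, 24.8% and 17.02% in dantrolene mice 1 to 3, against 22.6%, 25.6% and 20.3% in control mice 1 to 3. These are percentages of the counts of genes with a known exon length, with mitochondrial genes left out. Mitochondrially encoded RNA took 11.3%, 13.6% and 7.54% of all counts in dantrolene mice and 9.33%, 8.88% and 7.10% in control mice. Many results below are therefore also given without both mice number 3. Where no such value is given, the result may still rest on them.

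**Figure D1:**
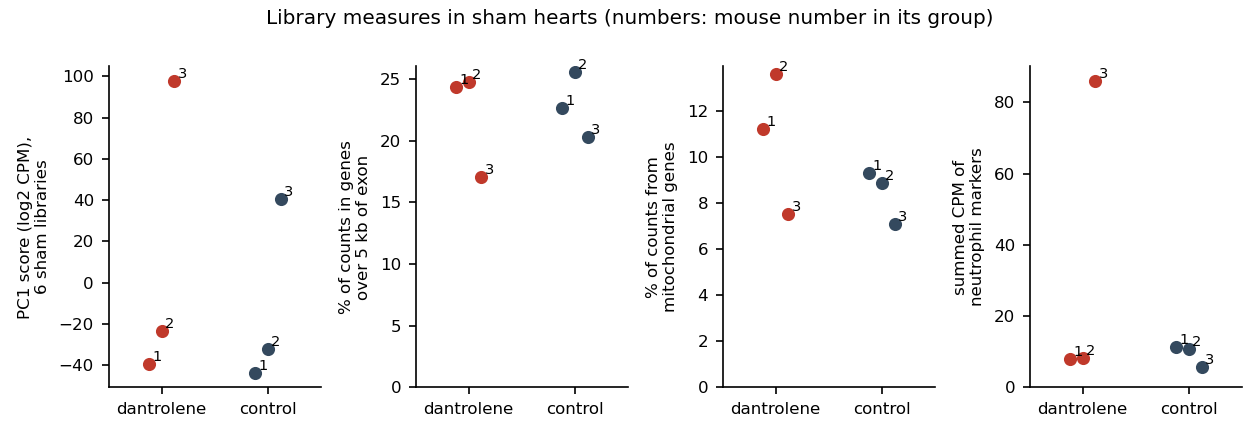
Library measures in the 6 sham hearts, with 1 point per mouse and the mouse number beside it, dantrolene left of control. From left to right the axes are the score on the first principal component, the percentage of counts in genes with over 5 kb of exon, the percentage of counts from mitochondrial genes, and the summed CPM of 7 neutrophil markers. The percentage for genes over 5 kb leaves mitochondrial genes out of its total. Both mice number 3 have positive scores on the first axis, and dantrolene mouse 3 alone has a neutrophil marker sum near 86.1 CPM.

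A group of low genes also stood apart in dantrolene mouse 3. Among 5185 tested genes with a mean under 3 CPM in the 4 sham mice numbered 1 and 2, 326 genes (6.29%) stood between 14 and 30 CPM in dantrolene mouse 3, most often between 20 and 23 CPM (105 genes), with fewer between 8 and 11 CPM (33 genes). The median level of these 326 genes was 0.989, 1.71 and 21.3 CPM in dantrolene mice 1 to 3 and 0.505, 1.37 and 6.12 CPM in control mice 1 to 3. By that choice they were low in the 4 mice numbered 1 and 2 and within 14 to 30 CPM in dantrolene mouse 3. Their quartiles there were 18.2 and 23.4 CPM. In 321 of the 326, S100a8 not among them, control mouse 3 was above both other control mice. The set mixes genes of unlike function and tissue: 210 were protein-coding, 35 were unclassified loci (TEC), 25 were long intergenic RNAs and 21 were processed pseudogenes, and 4 were olfactory receptors. Of the set, 35.6% were not protein-coding, against 23.3% of all 5185 low genes. It held Ryr1, S100a8, Srek1 and Myt1l, which are named below. The set was picked out after its values were seen, and its cause was not tested.

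**Figure D2:**
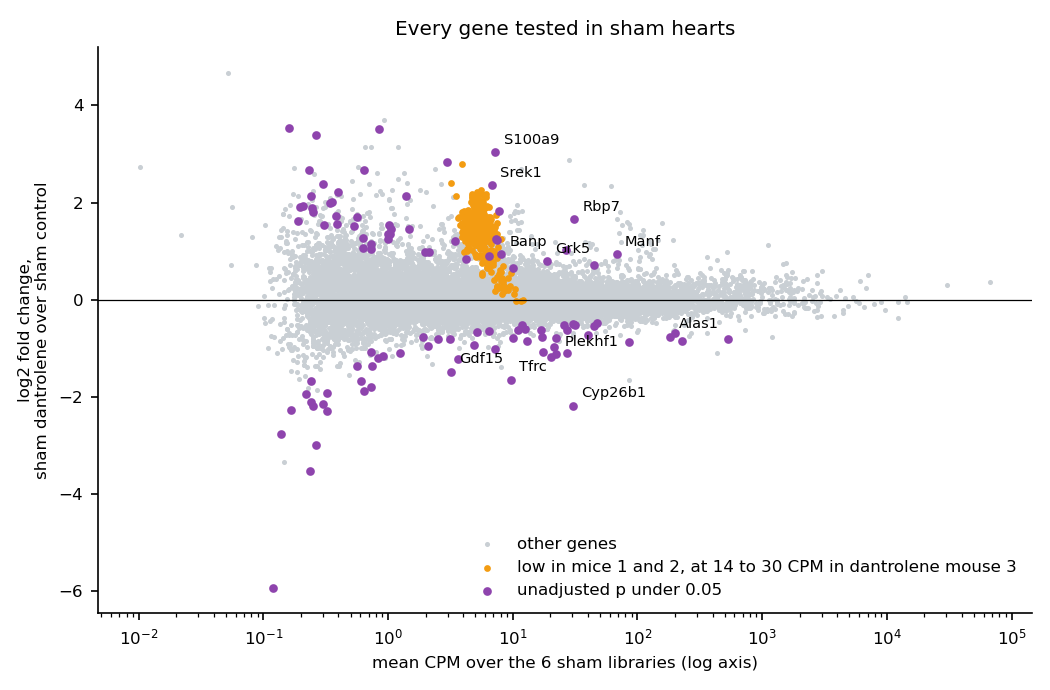
Each of 14964 genes by its mean CPM over the 6 sham libraries (log axis) and its log2 fold change, sham dantrolene over sham control. Purple points are the 107 genes with an unadjusted p under 0.05. Orange points are the 326 genes chosen as low in mice 1 and 2 and at 14 to 30 CPM in dantrolene mouse 3. That choice puts most of them above 0.

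No gene passed the test for a difference between sham dantrolene and sham control hearts. edgeR's quasi-likelihood test called 0 of 14964 genes at a Benjamini-Hochberg adjusted p under 0.05 (0% of genes tested), and its smallest adjusted p was 0.9999. At an unadjusted p under 0.05 it listed 107 genes (0.715%), 49 higher (0.327%) and 58 lower (0.388%) in dantrolene hearts. DESeq2 called 0 of 14826 genes, and listed 158 (1.07%) at an unadjusted p under 0.05, 96 higher (0.648%) and 62 lower (0.418%). Every gene below is therefore given by its values, as a difference that did not pass.

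The 95% intervals were wide for single genes. Among 6714 genes with a mean over 10 CPM, the 95% interval of the log2 fold change had a median half-width of 0.75. It lay within 1 log2 unit of 0, a 2-fold change in either direction, for 4190 of them (62.4%), and within 2 log2 units for 6507 (96.9%). Over all tested genes the median log2 fold change was 0.02 and the median absolute value 0.19, with 7853 genes (52.5%) above 0. In 1103 genes (7.37%) the 3 dantrolene values and the 3 control values did not overlap, with dantrolene higher in 448 (2.99%) and lower in 655 (4.38%). These counts are the background against which the gene groups below can be read.

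The smallest p among protein-coding genes of at least 1 CPM belonged to Tfrc, the transferrin receptor that brings iron into cells. Tfrc (ENSMUSG00000022797.13, GRCm38 chromosome 16, 32608920 to 32632794, plus strand) is a textbook case of control by iron. Its messenger RNA carries hairpins called iron-responsive elements in the 3′ UTR, and proteins that bind them when iron is scarce protect the RNA from decay. The 4 elements that a search of the GENCODE vM21 transcripts found in this gene are shown because they are the known sensor of the gene that led the comparison, in the sense strand, with the loop in capitals:
Tfrc element 1, chr16:32631220-32631246: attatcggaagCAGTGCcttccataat
Tfrc element 2, chr16:32631599-32631625: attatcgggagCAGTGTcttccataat
Tfrc element 3, chr16:32631664-32631690: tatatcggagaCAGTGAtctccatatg
Tfrc element 4, chr16:32631711-32631737: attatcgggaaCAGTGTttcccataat
The search asked on the sense strand for the motif CNNNNNCAGTGN followed by 5 bases that pair with the 5 bases after its first C, with any base but G as the last of the loop and G to T pairs allowed, and the lines above carry 5 further bases on each side. In these letters the bases on either side of each loop mirror each other, as a hairpin needs. A site of this form stood in a 3′ UTR of 100 of 21901 protein-coding genes (0.457%) and in a 5′ UTR of 23 (0.105%), and Tfrc was the 1 gene with as many as 4 in its 3′ UTR. A match describes the letters and does not show that the site is bound in these hearts.

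Tfrc stood at 4.51, 5.60 and 3.76 CPM in dantrolene mice 1 to 3, against 10.99, 10.4 and 22.3 CPM in control mice 1 to 3. Every dantrolene mouse lay below every control mouse, and control mouse 3 was the highest. The log2 fold change was -1.65 ± 0.41 (SE, 95% interval -2.54 to -0.77), and edgeR's adjusted p was 0.9999. Without both mice number 3 it was -1.07. Tfrc is also abundant in immature red cells. The summed level of 9 erythroid markers was 2085 ± 1212 CPM in dantrolene hearts and 2672 ± 1765 CPM in control hearts (SD, n = 3 each, two-sided exact permutation p = 0.6, where 3 against 3 cannot go below 0.1), and all 9 had a log2 fold change below 0, with a median of -0.26. That median was -0.81 without both mice number 3, -0.04 with the replicate block and 0.24 without control mouse 1, and none of the 9 passed the test. Their part in the Tfrc difference was not tested. In whole tissue, fewer cells of a type and less RNA per cell cannot be told apart.

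Alas1, the enzyme that sets the rate of haem synthesis outside red cells, was also lower in each dantrolene mouse. Its level was 149, 152 and 107 CPM in dantrolene mice 1 to 3 and 213, 219 and 263 CPM in control mice 1 to 3. The groups did not overlap, and the log2 fold change was -0.76 ± 0.25 (SE), or -0.50 without both mice number 3. Other genes of iron, haem and copper handling were looked at after these values were seen. With Tfrc and Alas1 they came to 17 genes, of which 13 overlapped between the groups, 3 were lower without overlap and 1 was higher without overlap. The 3 lower genes were Steap3 and the genes that prompted the look, Tfrc and Alas1. Over all tested genes, 4.38% were lower and 2.99% higher without overlap. Steap3, which reduces iron taken up with transferrin, stood at 44.6, 34.0 and 36.2 CPM in dantrolene mice, below 48.1, 50.5 and 54.1 CPM in control mice. The iron exporter ferroportin (Slc40a1) stood at 18.1, 17.1 and 7.03 CPM in dantrolene mice and 10.8, 10.1 and 6.27 CPM in control mice. Each dantrolene mouse was above the control mouse of the same number, and the groups overlapped. Ferritin heavy chain (Fth1), which stores iron, overlapped fully between the groups, at 3088, 4718 and 5819 CPM in dantrolene mice against 4229, 3635 and 3979 CPM in control mice. The copper transporter Atp7a was barely detected, at 0.402, 0.591 and 0.537 CPM in dantrolene mice and 0.0546, 0.191 and 0.0378 CPM in control mice, with a log2 fold change of 2.38 ± 0.67 (SE).

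Some genes of protein breakdown in muscle stood lower in dantrolene hearts. Trim63, which encodes the ubiquitin ligase MuRF1 of the sarcomere, was at 187, 154 and 148 CPM in dantrolene mice 1 to 3 and at 207, 416 and 257 CPM in control mice 1 to 3. Fbxo32, which encodes atrogin-1, was at 15.02, 14.8 and 20.6 CPM in dantrolene mice and at 24.6, 40.9 and 26.1 CPM in control mice. Asb2, a ubiquitin ligase subunit of muscle, was at 703, 564 and 449 CPM in dantrolene mice and at 823, 912 and 930.1 CPM in control mice. None of the 3 genes overlapped between the groups, control mouse 2 was the highest for Trim63 and Fbxo32, and their log2 fold changes were -0.85 ± 0.31, -0.86 ± 0.54 and -0.64 ± 0.32 (SE). Of 19 genes listed for muscle ubiquitin ligases, FoxO factors and autophagy, 15 had a log2 fold change below 0 and 0 passed the test, with a median of -0.07 beside 0.02 over all genes, and of 0.03 without dantrolene mouse 3. In that list 3 genes were lower without overlap and 1, the autophagy gene Gabarapl1, was higher without overlap. The shares over all tested genes were 4.38% lower and 2.99% higher. Klf15, a glucocorticoid-induced factor of the heart, stood at 22.9, 32.0 and 36.5 CPM in dantrolene mice and 38.7, 63.7 and 48.9 CPM in control mice, also without overlap. Most other listed glucocorticoid targets lay on the other side. Of 18 tested, 13 were above 0 and 5 below, and 0 passed the test. Their median log2 fold change was 0.20, or -0.07 without both mice number 3. Klf15 had the lowest value of the list, and was its 1 gene lower without overlap, with 0 higher.

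The remaining genes with the smallest p on the lower side had varied roles. Plekhf1, a lipid-binding protein of endosomes and lysosomes, stood at 12.9, 14.2 and 14.96 CPM in dantrolene mice and 21.9, 34.3 and 35.3 CPM in control mice (log2 fold change -1.12 ± 0.30). The metalloprotease gene Adam19 stood at 12.0, 16.2 and 8.76 CPM in dantrolene mice and 23.7, 39.9 and 20.1 CPM in control mice (-1.18 ± 0.38). In both genes the highest dantrolene mouse was below the lowest control mouse. Naglu, a lysosomal enzyme that degrades heparan sulfate, had a log2 fold change of -0.77 ± 0.25, Prickle3, of the planar polarity family, -0.79 ± 0.24, BC022687 -1.22 ± 0.38 and the exchange factor gene Rasgef1b -1.01 ± 0.36, each without overlap. Cyp26b1, which degrades retinoic acid, and the sorting receptor gene Sorcs2 did overlap: Cyp26b1 stood at 22.1, 3.98 and 6.94 CPM in dantrolene mice and 20.3, 94.1 and 35.8 CPM in control mice.

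On the higher side, Grk5 had the smallest p among genes over 10 CPM. It encodes a kinase that phosphorylates active beta-adrenergic receptors and so damps their signal in the heart. Grk5 stood at 20.5, 25.8 and 24.8 CPM in dantrolene mice 1 to 3, against 14.1, 13.6 and 13.3 CPM in control mice 1 to 3. The groups did not overlap, the log2 fold change was 0.79 ± 0.27 (SE, 95% interval 0.21 to 1.37), and it was 0.75 without both mice number 3. Crem, a transcription factor that responds to cyclic AMP, was at 5.04, 5.48 and 5.58 CPM in dantrolene mice and 4.15, 2.58 and 2.31 CPM in control mice, again without overlap. Of 26 tested genes of adrenergic and cyclic AMP signalling, 13 lay above 0 and 13 below, and 0 passed.

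Rbp7, a retinol-binding protein of the heart's endothelium and of fat, stood at 28.6, 34.9 and 77.5 CPM in dantrolene mice, against 16.2, 12.5 and 15.98 CPM in control mice. Dantrolene mouse 3 was the highest by far, and the log2 fold change of 1.66 ± 0.59 came to 1.16 without both mice number 3. Several of the other genes with small p were of low abundance. Bin2 stood at 1.21, 1.71 and 3.51 CPM in dantrolene mice and 0.955, 0.541 and 0.831 CPM in control mice, and the chemokine receptor gene Ccr1 at 2.63, 2.21 and 3.02 CPM in dantrolene mice and 1.91, 1.08 and 0.982 CPM in control mice. The hyaluronan receptor gene Cd44 stood at 7.94, 6.16 and 10.9 CPM in dantrolene mice and 5.18, 4.65 and 3.59 CPM in control mice. These 3 genes did not overlap, nor did Gimap8 (log2 fold change 1.35 ± 0.50), Thap2 (1.26 ± 0.47) or Prss55 (1.45 ± 0.58). Banp, Pirt and Srek1 did overlap. Srek1, a splicing regulator, belongs to the 326 genes high in dantrolene mouse 3, at 2.01, 2.71 and 29.2 CPM in dantrolene mice and 0.764, 1.81 and 4.04 CPM in control mice, and its log2 fold change of 2.36 ± 0.95 came to 0.10 when dantrolene mouse 3 was left out.

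**Figure D3:**
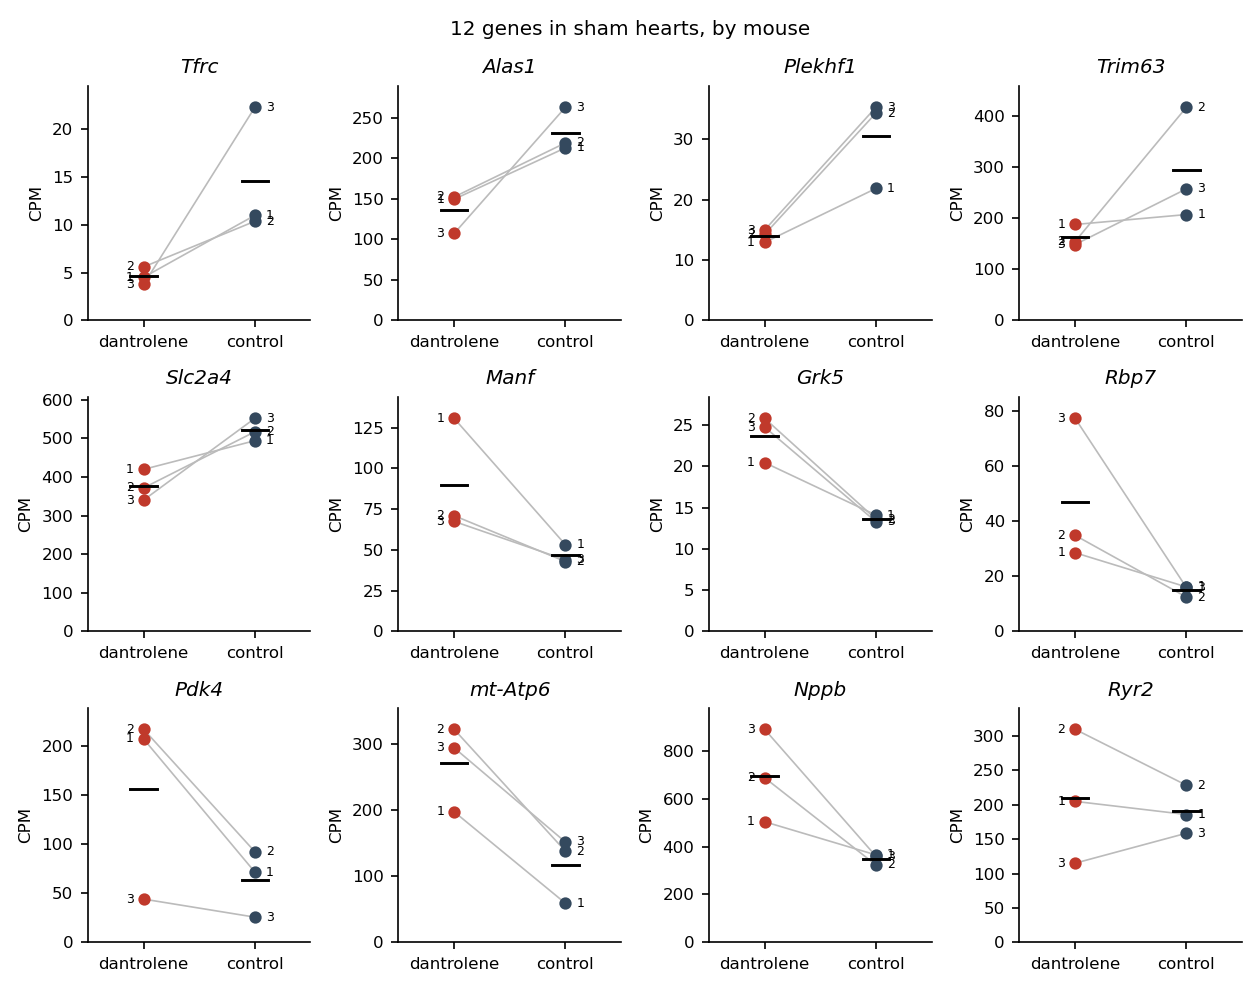
Levels in CPM of 12 genes in the 6 sham hearts, dantrolene left of control, each axis starting at 0. Points are mice, with the mouse number beside them, grey lines join mice of the same number, and black bars are group means. Tfrc, Alas1, Plekhf1, Trim63 and Slc2a4 have all dantrolene points below the control points, Manf, Grk5, Rbp7, mt-Atp6 and Nppb have them above, and Pdk4 and Ryr2 overlap.

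The drug's target and the calcium store around it showed no separation between the groups. Ryr2 (GRCm38 chromosome 13, 11553102 to 12106945, minus strand) stood at 205, 309.8 and 115 CPM in dantrolene mice 1 to 3 and 186, 229 and 159 CPM in control mice 1 to 3. Dantrolene mice were both the highest and the lowest of the 6, and the log2 fold change was 0.14 ± 0.38 (SE, 95% interval -0.68 to 0.96). With 3 mice a group, the data do not exclude a change inside that interval. Atp2a2 was at 7028, 7468 and 3148 CPM in dantrolene mice against 7102, 6671 and 4669.6 CPM in control mice, and Casq2 at 638, 596 and 324 CPM against 641, 552 and 494 CPM. Both were lowest in mouse 3 of each group, and their log2 fold changes of -0.06 ± 0.49 and -0.11 ± 0.37 turned to 0.09 and 0.06 without both mice number 3. Phospholamban (Pln) had a log2 fold change of 0.17 ± 0.40. Ryr1, the skeletal channel, was at 1.48, 1.52 and 18.7 CPM in dantrolene mice and 0.436, 1.34 and 6.39 CPM in control mice, and belongs to the 326 genes high in dantrolene mouse 3. Fkbp1b, which encodes a small protein that binds and steadies ryanodine receptors, was at 0.556, 0.809 and 0.951 CPM in dantrolene mice and 1.09, 0.668 and 2.31 CPM in control mice.

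Of 21 tested genes of ryanodine receptors and their partners, 13 were above 0 and 8 below, 0 passed the test and in 0 did the groups fail to overlap. Their median log2 fold change was 0.11, with 0.12 without both mice number 3 and -0.09 without dantrolene mouse 2. Among 27 genes of calcium entry, uptake and extrusion, 13 were above 0, 14 below, and 2 were higher without overlap, 1 of them the channel gene Trpc1 at 0.989, 0.964 and 1.16 CPM in dantrolene mice and 0.546, 0.509 and 0.378 CPM in control mice. Among 25 genes of CaMKII, calcineurin, NFAT and MEF2 signalling, 17 were below 0 with a median of -0.04, and 3 were lower without overlap. Over all tested genes, 2.99% were higher and 4.38% lower without overlap.

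The study's title names TNF-α, NF-κB and NLRP3, and none of the genes for them passed the test in sham hearts. Tnf, the cytokine gene, was at 1.82, 1.12 and 2.44 CPM in dantrolene mice 1 to 3 and 2.59, 1.18 and 0.189 CPM in control mice 1 to 3, with overlapping groups. Rela, an NF-κB subunit, was at 51.6, 45.3 and 51.0 CPM in dantrolene mice and 50.1, 52.3 and 56.3 CPM in control mice (log2 fold change -0.10 ± 0.27). Nlrp3, the inflammasome sensor, was close to the detection limit at 0.865, 0.933 and 0.372 CPM in dantrolene mice and 0.464, 0.318 and 0.189 CPM in control mice. Each dantrolene mouse was above the control mouse of the same number, and the groups overlapped. Il1b, the cytokine that the inflammasome activates, was at 4.05, 0.809 and 9.55 CPM in dantrolene mice and 6.49, 1.15 and 0.529 CPM in control mice. Its log2 fold change of 0.81 ± 0.93 was -0.64 without both mice number 3, and that of Tnf, 0.43 ± 0.68, was -0.34. Of 32 tested TNF and NF-κB genes 15 were above 0 and 17 below, with a median of -0.03. Of 18 inflammasome and pyroptosis genes 14 were above 0, and their median of 0.26 was 0.01 without both mice number 3.

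Genes that mark hypertrophy gave a mixed picture. Nppb, which encodes the natriuretic peptide BNP released by strained ventricle, was at 504, 687 and 889 CPM in dantrolene mice 1 to 3 and 365, 323 and 360.0 CPM in control mice 1 to 3. The groups did not overlap and the control mice were close together, but with the spread over all 12 libraries the log2 fold change of 0.99 ± 0.64 (SE, 95% interval -0.40 to 2.38) included 0. Nppa, the gene of the related peptide ANP, was at 267, 343 and 348 CPM in dantrolene mice and 196, 237 and 477 CPM in control mice, which overlap. Skeletal actin (Acta1) had a log2 fold change of 0.08 ± 0.45, and the alpha and beta myosin heavy chains Myh6 and Myh7 had -0.22 ± 0.58 and -0.53 ± 0.76. Of 20 genes of the hypertrophy and fetal programme, 10 lay on each side of 0, and 0 passed the test. Without overlap, 1 was higher and 2 were lower, beside 2.99% and 4.38% of all tested genes.

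Collagen and matrix genes lay mostly above 0 by small amounts. Of 43 tested, 29 had a positive log2 fold change, with a median of 0.11 (0.15 without both mice number 3), and 0 passed. Without overlap, 5 were higher and 2 lower, beside 2.99% and 4.38% of all tested genes. Lox, which cross-links collagen, was at 0.587, 0.964 and 1.65 CPM in dantrolene mice and 0.273, 0.573 and 0.378 CPM in control mice. The gelatinase gene Mmp2 was at 69.0, 57.9 and 82.2 CPM in dantrolene mice and 86.5, 88.8 and 109.7 CPM in control mice, so the dantrolene mice were lower. The fibrillar collagens Col1a1 and Col3a1 had log2 fold changes of 0.17 ± 0.40 and 0.38 ± 0.36, with overlap.

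Glucose-handling genes lay mostly below 0. Of 30 tested genes of glycolysis, glucose transport and glycogen, 21 were below 0 and 9 were lower without overlap (Slc2a4, Pfkfb2, Gpi1, Gys1, Pfkl, Pygm, Eno1, Pkm and Aldoa), beside 4.38% of all tested genes. None passed the test, and the median log2 fold change was small, at -0.18, or -0.14 without both mice number 3. Slc2a4, the insulin-regulated glucose transporter GLUT4, was at 419.9, 372 and 340.4 CPM in dantrolene mice 1 to 3 and 494, 517 and 552 CPM in control mice 1 to 3, a log2 fold change of -0.47 ± 0.26. Pfkfb2, the heart enzyme that makes the activator of phosphofructokinase, was at 5.22, 5.20 and 2.27 CPM in dantrolene mice and 8.07, 11.4 and 5.59 CPM in control mice. Glycogen synthase (Gys1) was at 115, 105 and 57.4 CPM in dantrolene mice and 122, 132 and 121 CPM in control mice, and muscle glycogen phosphorylase (Pygm) at 1322, 1149.7 and 887 CPM against 1419, 1452 and 1378 CPM. For Gys1 and Pygm dantrolene mouse 3 was the lowest of the 6, and without both mice number 3 their log2 fold changes were -0.20 each.

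Genes for fat as fuel lay on both sides of 0. Pdk4, which restrains the oxidation of pyruvate in mitochondria, was at 207, 216 and 44.0 CPM in dantrolene mice and 71.4, 92.1 and 25.7 CPM in control mice. Each dantrolene mouse was above the control mouse of the same number, while both mice number 3 were low, so the groups overlapped (log2 fold change 1.30 ± 0.78). Ucp3, an uncoupling protein of mitochondria, was at 45.9, 22.99 and 20.1 CPM in dantrolene mice and 22.5, 14.8 and 8.39 CPM in control mice, and Angptl4, an inhibitor of lipoprotein lipase, at 14.3, 3.73 and 12.4 CPM against 9.79, 1.62 and 2.53 CPM. Cpt1a, which brings fatty acids into mitochondria, had a log2 fold change of 0.49 ± 0.40, and the fatty acid carrier gene Fabp4 0.60 ± 0.39, without overlap. Ppargc1a, a coactivator of mitochondrial genes, lay on the other side at -0.44 ± 0.32, without overlap. Of 38 genes of fatty acid oxidation and its PPAR regulators, 22 were above 0, with a median of 0.08 that was -0.05 without dantrolene mouse 1.

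Messenger RNAs encoded by mitochondrial DNA were mostly higher in dantrolene hearts. Of 13 tested, 12 had a positive log2 fold change, 5 were higher without overlap, beside 2.99% of all tested genes, and 0 passed. The median was 0.42, and 0.70 without both mice number 3 and 0.23 without dantrolene mouse 2. mt-Atp6, a subunit of ATP synthase, was at 197, 322 and 294 CPM in dantrolene mice 1 to 3 and 59.1, 138 and 152 CPM in control mice 1 to 3. mt-Nd3, of complex I, was at 29.0, 51.6 and 49.6 CPM in dantrolene mice and 23.1, 26.6 and 25.5 CPM in control mice. mt-Nd5 was at 2910.4, 3382 and 3416 CPM in dantrolene mice and 1808, 2596 and 2442 CPM in control mice, and mt-Atp8 and mt-Co3 were the other genes without overlap. The share of all counts from mitochondrial genes, given above, did not pass a two-sided exact permutation test (p = 0.3, where 0.1 is the smallest possible), and near-identical copies of these genes in the nuclear genome can take reads from some of them. Nuclear genes of oxidative phosphorylation had a median of 0.10 over 51 genes, and 0.01 without both mice number 3.

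Genes of the unfolded protein response, through which the endoplasmic reticulum adds folding capacity, lay mostly above 0. Of 28 tested, 21 were positive and 0 passed, with a median of 0.17. Without overlap, 4 were higher and 0 lower, beside 2.99% and 4.38% of all tested genes. The median was 0.24 without both mice number 3, and ranged from 0.01 without dantrolene mouse 1 to 0.35 without dantrolene mouse 3. Manf, a secreted factor of the stressed reticulum, was at 131, 71.0 and 67.5 CPM in dantrolene mice and 53.2, 42.9 and 43.9 CPM in control mice (log2 fold change 0.94 ± 0.41). Edem1, which sends misfolded proteins to degradation, was at 10.4, 10.6 and 15.5 CPM in dantrolene mice and 7.80, 7.80 and 7.67 CPM in control mice. Sdf2l1, a chaperone partner of the reticulum, and Ddit3, the stress factor CHOP, completed the 4, at 0.87 ± 0.59 and 0.42 ± 0.28. Hspa5, the chaperone BiP, was at 188, 133 and 60.0 CPM in dantrolene mice and 81.0, 92.5 and 71.2 CPM in control mice, high in dantrolene mice 1 and 2 and low in dantrolene mouse 3. Heat shock proteins and cochaperones, which serve the cytosol, had a median of 0.02 over 32 genes.

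**Figure D4:**
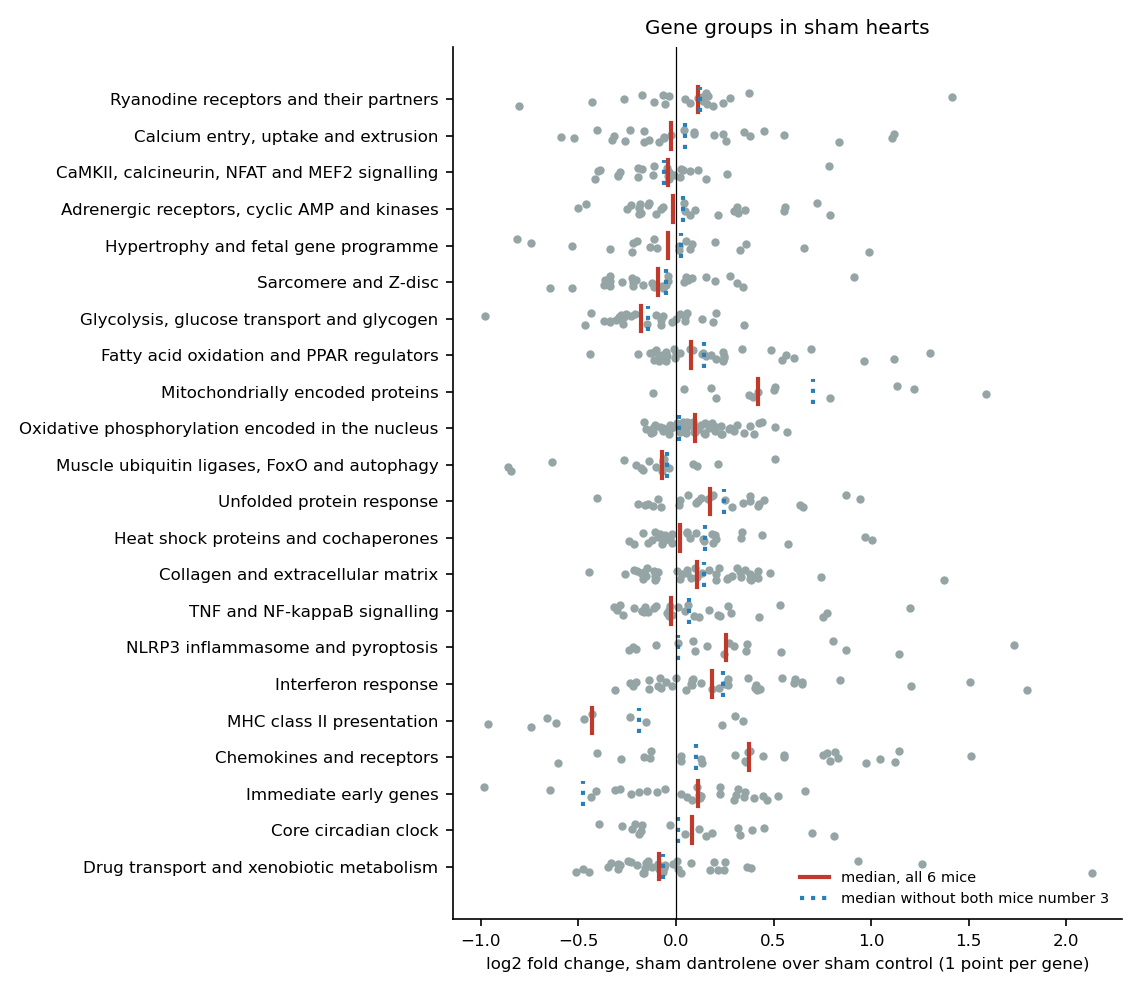
Log2 fold changes, sham dantrolene over sham control, of the tested members of 22 gene groups, with 1 grey point per gene. Solid red bars are medians with all 6 mice and dotted blue bars medians without both mice number 3. Medians of most groups lie close to 0, the mitochondrially encoded group lies at 0.42 and 0.70, MHC class II lies below 0 at -0.43 and -0.19, and the bar of the immediate early genes lies at 0.11 with all mice and at -0.47 without mice number 3.

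Summed levels of marker genes overlapped between the groups for 16 of 17 cell types. Epicardial and mesothelial markers summed to 7.11, 9.11 and 16.99 CPM in dantrolene mice 1 to 3 and 6.41, 5.03 and 4.23 CPM in control mice 1 to 3, the 1 list without overlap (two-sided exact permutation p = 0.1, the smallest that 3 against 3 allows, unadjusted over 17 lists). Of 11 such markers 10 were above 0, with a median of 1.11, or 0.42 without both mice number 3. Wt1, a transcription factor of the epicardium, was at 2.29, 3.39 and 3.10 CPM in dantrolene mice and 2.13, 1.24 and 1.02 CPM in control mice. The mesothelial gene Upk3b was at 0.618, 0.249 and 3.80 CPM in dantrolene mice and 0.273, 0.0318 and 0.0756 CPM in control mice. Neutrophil markers summed to 7.88, 8.27 and 86.1 CPM in dantrolene mice and 11.3, 10.7 and 5.63 CPM in control mice, so only dantrolene mouse 3 stood out. S100a9, an antimicrobial protein of neutrophils, was at 1.67, 1.43 and 35.8 CPM in dantrolene mice and 2.26, 1.69 and 0.756 CPM in control mice. Its log2 fold change of 3.03 ± 1.39 became -0.34 without both mice number 3. Its partner S100a8 belongs to the 326 genes described above.

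The deviations of mice that share a number correlated across genes, so the comparison was also made within numbered pairs. The labels do not say that a number marks a shared batch or day. Dantrolene mouse 1 correlated with control mouse 2 (0.376) about as strongly as the mice number 2 with each other (0.366). Since mice number 3 stood apart in both groups, the correlations cannot decide how mice 1 and 2 pair. With the number as a block in the 6 sham libraries, edgeR called 0 of 14203 genes (0% at an adjusted p under 0.05), and the smallest adjusted p was 0.156. At an unadjusted p under 0.05 it listed 1107 genes (7.79%), 766 higher (5.39%) and 341 lower (2.40%), against 262 in the same 6 libraries without the block. With all 12 libraries the count was 610 with the block and 107 without it. Of the 326 genes high in dantrolene mouse 3, 248 were among the 1107, and their median level was higher in the dantrolene mouse of each pair. Choosing the set by a high level in dantrolene mouse 3 favours a difference in this direction. Outside that set 859 of 13877 genes were listed (6.19%). Among the genes with the smallest p in this fit were Adam19 (log2 fold change -1.15 ± 0.16), Plekhf1 (-1.08 ± 0.17), Tfrc (-1.55 ± 0.30), Podn (-0.85 ± 0.18) and the stress cytokine gene Gdf15 (-1.43 ± 0.31) on the lower side. On the higher side they were mt-Atp6 (1.31 ± 0.18), Pdk4 (1.19 ± 0.17), Rbp7 (1.53 ± 0.25), Slc4a10 (1.83 ± 0.31), Myt1l (1.78 ± 0.30) and Sp6 (1.20 ± 0.21). Myt1l, a neuronal factor, is 1 of the 326 genes, and Sp6 and Slc4a10 had the same profile at another height: Sp6 was at 16.1, 30.3 and 337 CPM in dantrolene mice and 5.89, 20.9 and 111 CPM in control mice. In the same fit Nppb was at 0.96 ± 0.19, Manf at 0.89 ± 0.17 and Ucp3 at 0.98 ± 0.17.

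Whether the drug difference depended on the operation was tested with the interaction, the difference in sham hearts minus that in TAC hearts, which share no library. edgeR called 0 of 14964 genes (0%) and listed 422 (2.82%) at an unadjusted p under 0.05, 190 above 0 (1.27%) and 232 below (1.55%). DESeq2 called 1 of 14826 (0.00674%), Acta1, with an interaction of 3.51 ± 0.66 on the log2 scale (adjusted p = 0.00179), and listed 507 (3.42%), 281 above 0 (1.90%) and 226 below (1.52%). Acta1 was at 232, 324 and 343 CPM in sham dantrolene mice and 268, 267 and 314 CPM in sham control mice, so its interaction came from the TAC hearts, where the log2 fold change of dantrolene over control was -3.39 ± 0.50. In edgeR the Acta1 interaction was 3.47 ± 0.66 with an adjusted p of 0.9995.

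Of the 24 genes with the smallest p in sham hearts, 19 had the opposite sign in TAC hearts, beside 61.3% of all tested genes. Plekhf1, Sorcs2, Rasgef1b, Cacfd1, Gimap8 and Fmod were named for the smallest interaction p, so their opposite or unequal values are a description of that choice. Plekhf1 had a log2 fold change of -1.12 ± 0.30 in sham hearts and 1.03 ± 0.30 in TAC hearts, an interaction of -2.15 ± 0.43. Sorcs2 had -0.98 ± 0.36 in sham hearts and 1.50 ± 0.37 in TAC hearts, Rasgef1b -1.01 ± 0.36 and 1.04 ± 0.37, and Cacfd1 -0.52 ± 0.21 and 0.71 ± 0.21. Trim63 had -0.85 ± 0.31 in sham hearts and 0.67 ± 0.31 in TAC hearts. Gimap8 ran the other way, at 1.35 ± 0.50 in sham hearts and -1.31 ± 0.48 in TAC hearts. Tfrc was below 0 in both, at -1.65 ± 0.41 in sham hearts and -0.41 ± 0.40 in TAC hearts, and Alas1 and Grk5 were close to 0 in TAC hearts at 0.13 ± 0.25 and -0.14 ± 0.27. For the matrix gene Fmod, the interaction of 2.86 ± 0.73 came mostly from TAC hearts, where it was at -2.12 ± 0.51. None of these interactions passed the adjusted threshold in edgeR, and the genes with the smallest p in sham hearts were chosen for a large difference there.

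**Figure D5:**
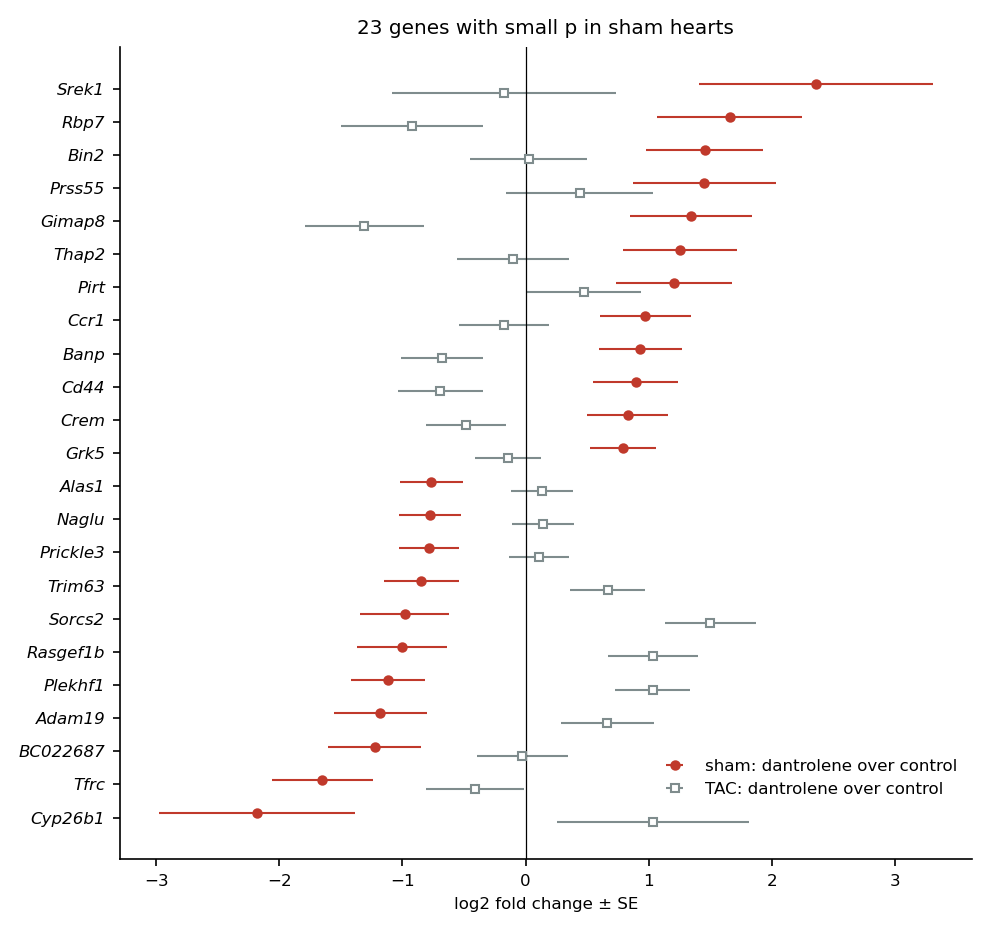
Log2 fold change of dantrolene over control in sham hearts (red circles) and in TAC hearts (grey squares) for 23 of the genes with the smallest p in sham hearts, 12 higher and 11 lower, sorted by the sham value. Bars are SE. The sham values run from -2.18 for Cyp26b1 to 2.36 for Srek1, and the TAC value of Tfrc lies on the same side of 0 as its sham value while that of Plekhf1 lies on the other side.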

How the data were processed

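Polyadenylated RNA of the left ventricle was sequenced as directional libraries in paired reads of 150 nt, as the labels' protocols state. Software and build (bcl2fastq, TopHat2, edgeR, GRCm38) are those in the submitters' processing notes. Not given in the sources used here are the counting tool, the annotation and whether strand was used, so antisense partners, overlapping genes and paralogs may share reads. Counts were deposited by the authors as whole reads per gene for 25319 genes with a symbol, without normalisation. The authors also deposited FPKM values, which divide by gene length and depth, for 25258 genes. From the counts, 1 row without a symbol was left out (0.000232% of the counts). Groups follow the sample titles, with 3 mice in each. Pairs of libraries within a sham group differed by a chi-square of at least 34.1 per gene, so none was counted as a repeat.

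The counts were analysed with edgeR 4.0.16 in R 4.3.3. A filter by expression (filterByExpr, minimum count 10, minimum total 15) left 14964 genes and removed 0.0418% of the counts. TMM scaling was used, and the robust quasi-likelihood method fitted 4 group means to the 12 libraries (8 residual degrees of freedom). Two-sided p-values were adjusted across the tested genes by the Benjamini-Hochberg method. The common biological coefficient of variation was 0.443 over the 12 libraries, 0.379 in the 6 sham libraries and 0.201 there with the replicate block. The first value limits precision more than the sham totals of 25766342 to 34487915 counts. The p-values set each difference against the spread between mice, estimated over all 4 groups. The procedure was tested on simulated counts. Coordinates and transcripts are from GENCODE vM21 on GRCm38, matched for 14910 of the tested genes.

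The genes, gene lists and tests were chosen with earlier results of these data known. Named genes are protein-coding genes of at least 1 CPM with the 12 smallest p per direction, the 6 smallest per direction with the replicate block, the 4 smallest per direction for the interaction, up to 4 members per list by p, and a set of index genes. Steap3, Slc40a1, Fth1 and Atp7a, and the 326 genes high in dantrolene mouse 3, were chosen after their values were seen. A few genes that the rule names are not reported here. A list is described by counts and its median, with no test of the list. Mouse numbers were taken as pairs since deviations of same-numbered sham mice from their group means correlated across genes at 0.465, 0.366 and 0.672, each over 0.1. Of the unlike numbers, 2 combinations reached 0.376 and 0.305. Combinations of a mouse 3 with a mouse 1 or 2 ran from -0.616 to -0.450. Mice 1 and 2 of either group thus lay on the same side, away from mice 3. The correlations therefore cannot show that mice 1, or mice 2, form a pair. Alternatives were DESeq2 1.42.0, limma 3.58.1 on log2(FPKM + 1), other scalings and filters, the block, and leaving out mice.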

Additional observations from a re-analysis of the deposited data

How the results depend on the processing

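For the drug in sham hearts, each of 18 alternatives (16 planned and 2 chosen after seeing the data) called 0 genes, as did the fit reported. Its count at an unadjusted p under 0.05, 107, was 271 with no filter on low counts, 262 in the 6 sham libraries alone and 35 without both mice number 3. With the replicate block in the 6 sham libraries it was 1107, and also 1107 with RLE scaling, 851 in mice 1 and 2, and 610 with all 12 libraries. Leaving out 1 sham library at a time gave 56 (without control mouse 2) to 404 (without control mouse 3), with 255 without dantrolene mouse 1. For the interaction, DESeq2 called 1 gene, and the count of 422 was 649 with no filter, 1740 with the replicate block, 227 without both mice number 3, and 227 to 443 with 1 sham library left out. Of 93 named genes, 77 had no opposite sign in any setting, and over 1669 values 35 had the opposite sign. Without both mice number 3, and in the block of mice 1 and 2, log2 fold changes turned for Atp2a2 (0.0864 and 0.0903), Casq2 (0.0621 and 0.0692), Myh6 (0.0432 and 0.0642), Il1b (-0.64 and -0.60), Tnf (-0.34 and -0.30), S100a8 (-0.60 and -0.59) and S100a9 (-0.34 and -0.33). Fth1 turned to -0.0223 in the block of mice 1 and 2, and in limma Ryr2 turned to -0.0410 and Acta1 to -0.0337. Leaving out 1 library gave ranges that cross 0 for Fth1 (-0.0173 to 0.41), Ryr2 (-0.26 to 0.43), Ryr1 (-0.84 to 3.02), Atp2a2 (-0.28 to 0.24), Casq2 (-0.29 to 0.13), Nppa (-0.16 to 0.57), Acta1 (-0.0269 to 0.23), Myh6 (-0.46 to 0.12), Casp1 (-0.0016 to 0.62), Il1b (-0.17 to 2.50), Tnf (-0.0703 to 1.37), S100a8 (-0.47 to 2.68), S100a9 (-0.0242 to 3.56), Sp6 (-0.99 to 3.25), Myt1l (-0.67 to 4.21) and Slc4a10 (-0.10 to 3.58). Of 900 medians of gene lists, 99, in 33 of 50 lists, moved by 1 SD or more, where SD is that of the mean log2 CPM of the list over the 3 control mice. The median crossed 0 in 35 of the 50 lists when 1 library was left out. The cause of these differences was not tested.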

Other observations

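Other gene groups of the sham comparison are given as values. MHC class II genes, which present antigen, were lower in 8 of 11, with a median log2 fold change of -0.43, or -0.19 without both mice number 3, and 0 passed. Cd74, the chain that escorts class II proteins, was at 252, 143 and 186 CPM in dantrolene mice 1 to 3 and 262, 257 and 453 CPM in control mice 1 to 3, without overlap. Chemokines and their receptors were above 0 in 22 of 28, with a median of 0.37 that came to 0.10 without both mice number 3. Cell cycle genes had a median of 0.50, or 0.10 without them, and cytosolic ribosomal protein genes 0.25, or 0.07 without them. In the immediate early genes the median was 0.11 with all mice and -0.47 without both mice number 3. Of 30 members, Ier3 was the 1 higher without overlap, beside 2.99% of all tested genes. It was at 61.5, 58.2 and 82.8 CPM in dantrolene mice and 44.6, 49.4 and 52.6 CPM in control mice.

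In the core circadian clock, 18 genes had a median log2 fold change of 0.08. The repressor gene Nr1d1 (Rev-erb alpha) was at 89.9, 106 and 73.4 CPM in dantrolene mice and 46.0, 55.9 and 52.0 CPM in control mice, without overlap (0.81 ± 0.53). The labels give no hour of sampling. Genes of drug transport and xenobiotic metabolism were above 0 in 14 of 37 with a median of -0.09. Among them Cyp4b1, a heart-expressed cytochrome P450, was at 36.5, 26.2 and 25.3 CPM in dantrolene mice and 42.7, 42.3 and 37.2 CPM in control mice, without overlap. The liver cytochrome gene Cyp2e1 was at 0.247, 0.902 and 5.62 CPM in dantrolene mice and 0.164, 0.223 and 1.17 CPM in control mice, highest in mouse 3 of each group.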
